A study of Mus musculus with 5 samples.

Results

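A set of 10 chemokine genes was followed in murine lung cancer-associated fibroblasts (CAFs), the fibroblasts of tumor tissue. The set held 6 CXC chemokines (*Cxcl1*, *Cxcl2*, *Cxcl5*, *Cxcl10*, *Cxcl12* and *Cxcl14*), 3 CC chemokines (*Ccl2*, *Ccl5* and *Ccl7*) and the CX3C chemokine *Cx3cl1*. The genes were taken by symbol from the 21835 genes of the deposited expression table. They were chosen from their levels in CAF-200 and CAF-vec, with the result of this comparison known, so their values are given as a description, and a threshold that they passed or missed is no test of them. Bulk RNA was sequenced from 2 samples of CAFs carrying the vector alone (CAF-vec, labelled WT control) and 3 samples of CAFs with miR-200 overexpression (CAF-200). CAF-200 carried the miR-200b, miR-200a and miR-429 genes in the lentiviral vector pLVX-Neo, and G418 selection of the transduced cells lasted over 2 weeks. Cells of both groups were grown in alpha-MEM with serum, without cancer cells or leukocytes added. Neither the labels nor the methods say whether samples of a group came from separate transductions, so all spreads and *p* values measure differences between these samples, which may be technical. The labels name the neomycin-resistant vector in CAFs, whereas the methods describe a hygromycin-resistant vector and another RNA kit. The cell culture methods say that this vector was introduced into normal lung fibroblasts, although the paper's results and RNA sequencing methods speak of CAFs. The methods also speak of triplicates where the labels give 2 CAF-vec samples. The strain, sex and age of the mice and the tumor are not given in the sources used here.

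Chemokines are small secreted proteins that bind G protein-coupled receptors and direct the migration of leukocytes along their gradients. They are classed by the spacing of conserved cysteines near the amino terminus, and many lie in gene clusters that arose by duplication. Fibroblasts of the tumor stroma are known as a source of CXCL12, which acts on CXCR4 and ACKR3, and of chemokines that attract monocytes or neutrophils. The miR-200 family comprises microRNAs that repress mRNAs through short matches to the seed, bases 2 to 8 of the mature microRNA, mostly in the 3′-UTR. The comparison asked how the levels of these chemokine mRNAs differed between CAF-200 and CAF-vec.

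The mature sequences of the microRNAs overexpressed in CAF-200 are shown because their seeds set which matches were looked for in the chemokine mRNAs. They are RefSeq sequences on the minus strand of chromosome 4 (GRCm38.p6), at chr4:156055685-156055706 for miR-200b-3p, chr4:156053916-156053937 for miR-429-3p and chr4:156054911-156054932 for miR-200a-3p, with the seed in capitals.
miR-200b-3p: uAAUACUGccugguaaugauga
miR-429-3p: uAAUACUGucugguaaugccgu
miR-200a-3p: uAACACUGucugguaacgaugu
The first 2 share 1 seed, which pairs with CAGTATT in the mRNA strand written as DNA, and the seed of miR-200a-3p pairs with CAGTGTT.

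The table gives normalized CPM, counts scaled to a fixed library total, so all samples sum to nearly the same total and the depth of each is unknown. The SD over genes of the log2 difference reached 0.49 for the CAF-vec pair and 0.19 to 0.20 for the CAF-200 pairs. Of 11 fibroblast markers, 10 were expressed highly enough to be tested, with *Col1a1*, *Col1a2* and *Vim* above 1500 CPM in every sample. Of these 10, *Acta2*, *Dcn*, *Lum* and *Thy1* were called higher in CAF-200, while 5 had a log2 fold-change below 0, among them *Col1a1* (-0.91), *Col1a2* (-0.75) and *Vim* (-0.39). None of 8 epithelial markers reached 0.5 CPM, and *Tek*, in CAF-vec 1 only, was the only 1 of 6 endothelial markers to do so. The 8 leukocyte and macrophage markers summed to 8.34 and 9.40 CPM in CAF-vec and to 12.2, 12.9 and 12.5 CPM in CAF-200. Of the 3 tested, 1 (*Lyz2*) had a log2 fold-change above 0 and 2 had one below 0. Without *Lyz2* the other 7 summed to 7.23 and 7.41 CPM in CAF-vec and to 4.73, 5.71 and 5.99 CPM in CAF-200, lower without overlap. *Cd68* and *Csf1r* made up nearly all of that sum, and each overlapped between the groups. *Cd68* was at 2.25 and 5.01 CPM in CAF-vec, against 2.39 to 3.54 CPM in CAF-200. *Csf1r* was at 4.97 and 2.31 CPM in CAF-vec, against 2.29 to 2.39 CPM in CAF-200. *Adgre1* and *Cd3e* were at 0 in all samples, *Ptprc*, which marks all leukocytes, was at most 0.0404 CPM, and *Lyz2* was called higher in CAF-200 (limma log2 fold-change 1.91, adjusted *p* = 0.00395). Of the 4 mesothelial markers only *Msln* was tested, at 5.74 and 6.68 CPM in CAF-vec, against 0.986 to 1.54 CPM in CAF-200, where it was called lower. *Zeb1*, a known miR-200 target, was 43.5 and 50.7 CPM in CAF-vec, against 34.1 to 37.8 CPM in CAF-200 (limma log2 fold-change -0.36, adjusted *p* = 0.0504), and *Zeb2* overlapped between the groups. In the CAF-200 columns 816 to 1108 genes held values above 0 but below 0.005 CPM, whereas in CAF-vec 0 genes did. A value of 0 was shared by all 3 CAF-200 columns in 6127 genes and occurred in only some of them in 0 genes, so zeros of CAF-200 are not counted as 3 separate observations. In bulk RNA, a difference in the number of cells that express a gene cannot be told apart from a difference in RNA per cell.

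Genes that reached 0.5 CPM in 2 or more samples entered the comparison, made on log2(CPM + 0.5), a scale that understates the change of genes with low values. This left 12175 genes and 7 of the 10 chemokines. *Cxcl2*, *Cxcl10* and *Ccl5* were too low. A gene was called at an adjusted *p* under 0.01 (limma, Benjamini-Hochberg over all tested genes) and a log2 fold-change beyond 1. Of all tested genes, 2.37% were called higher and 2.35% lower in CAF-200, together 4.72%. Of the 7 tested chemokines, *Cxcl14*, *Cxcl1*, *Ccl2*, *Cxcl5* and *Ccl7* passed that threshold as higher and 0 as lower. Nothing is read from that count, because the list was drawn up from the same comparison. *Cxcl14* and *Cxcl5* passed the level required for testing only through the CAF-200 samples and therefore had to differ between the groups. Samples of the groups did not overlap for 6 of the 7 chemokines, CAF-200 being higher in each, a pattern that 24.3% of all tested genes showed. The log2 fold-change was above 0 for 41.7% of all tested genes, and the groups did not overlap in either direction for 61.6%. Without CAF-200 replicate 1 or 3 none of the 5 passed it, and without replicate 2 *Cxcl14* alone did. Without the filter on low values *Ccl2* and *Ccl7* did not pass it, and with 1 CPM added in place of 0.5 *Cxcl5* did not.

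**Figure D1:**
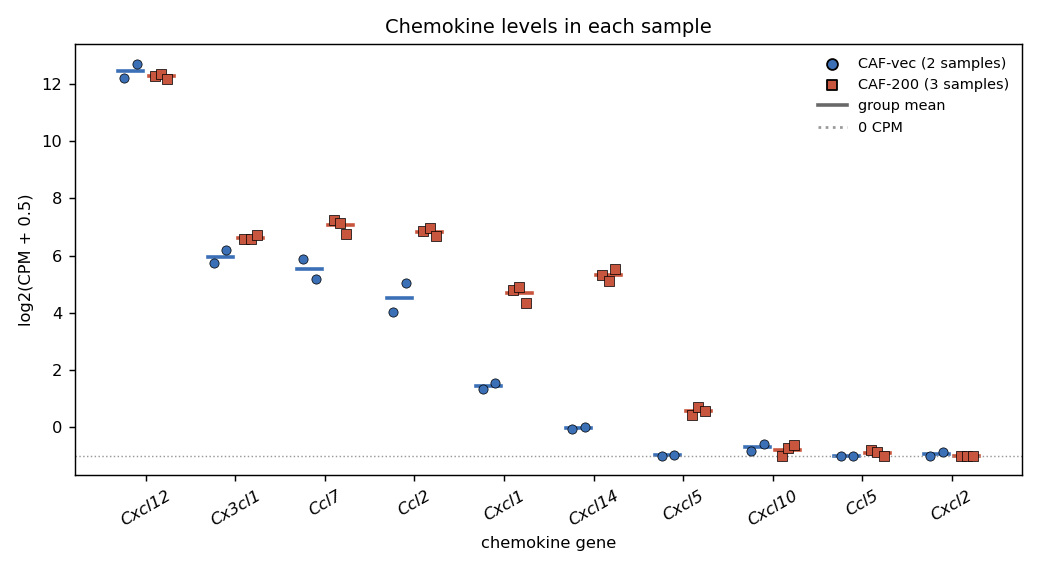
Level of each of the 10 chemokine genes in every sample, as log2(CPM + 0.5). Circles are the 2 CAF-vec samples, squares the 3 CAF-200 samples, bars the group means of the log2 values, and the dotted line marks 0 CPM. *Cxcl12* lies far above the others and overlaps between the groups, whereas all CAF-200 points of *Cxcl14* (33.7 to 45.6 CPM) lie far above both CAF-vec points (0.463 and 0.499 CPM).

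*Cxcl14* encodes a CXC chemokine made by epithelia and by some stromal fibroblasts, whose receptor is not settled. It (ENSMUSG00000021508, minus strand of GRCm38, chr13:56288643-56296551) measured 0.463 and 0.499 CPM in CAF-vec, against 39.9, 33.7 and 45.6 CPM in CAF-200. Both CAF-vec values thus lay just under the 0.5 CPM required for testing, and every CAF-200 value lay far above them. The means were 0.481 ± 0.0249 CPM (SD, n = 2) and 39.7 ± 5.94 CPM (SD, n = 3), a ratio of 82.5. On log2(CPM + 0.5) the difference was 5.35 ± 0.15 (SE), which ranked 1 among the rises of all 12175 tested genes. Because the CAF-vec level was close to the added constant, the log2 difference was 4.77 with 1 CPM added and 6.09 with 0.1 CPM added. The size of the difference did not rest on a given sample, being 5.24 to 5.46 when each sample was left out in turn.

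Chemokines with the ELR motif before the first cysteines act on CXCR2 and attract neutrophils. *Cxcl1* (ENSMUSG00000029380, plus strand, chr5:90891241-90893115) was at 2.01 and 2.43 CPM in CAF-vec and at 27.1, 29.5 and 19.7 CPM in CAF-200. All CAF-200 samples were well above both CAF-vec samples, the lowest being replicate 3. The means were 2.22 ± 0.300 CPM (SD, n = 2) and 25.4 ± 5.14 CPM (SD, n = 3), a ratio of 11.5, and the log2 difference was 3.24 ± 0.20 (SE), rank 6 among rises. *Cxcl5* (ENSMUSG00000029371, plus strand, chr5:90759360-90761624) was listed at 0 and 0.00975 CPM in CAF-vec and at 0.842, 1.15 and 0.993 CPM in CAF-200. It was thus hardly seen in CAF-vec and stayed at about 1 CPM in CAF-200, with no overlap. Its log2 difference of 1.56 ± 0.17 (SE) depends on the constant added, being 0.99 with 1 CPM and 3.38 with 0.1 CPM, and no ratio is given against a group with a 0. *Cxcl2* (ENSMUSG00000058427, plus strand, chr5:90903871-90905938) was listed at 0 in CAF-vec 1 and all 3 CAF-200 samples and at 0.0494 CPM in CAF-vec 2. It was not detected beyond that value, although it lies next to *Cxcl1* and belongs to the same receptor group.

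*Ccl2* and *Ccl7* encode the monocyte chemoattractants MCP-1 and MCP-3, which act on CCR2, and CCL7 also on other CC receptors. *Ccl2* (ENSMUSG00000035385, plus strand, chr11:82035571-82037453) was at 15.7 and 32.0 CPM in CAF-vec and at 114, 125 and 101 CPM in CAF-200. The CAF-vec samples differed by a ratio of 2.04 between themselves, and both lay below every CAF-200 sample. The means were 23.9 ± 11.6 CPM (SD, n = 2) and 113 ± 11.8 CPM (SD, n = 3), a ratio of 4.76. The log2 difference was 2.31 ± 0.29 (SE), and it was 1.80 without CAF-vec replicate 1 and 2.81 without CAF-vec replicate 2. *Ccl7* (ENSMUSG00000035373, plus strand, chr11:82045712-82047525) was at 57.7 and 35.4 CPM in CAF-vec and at 152, 141 and 108 CPM in CAF-200. Here CAF-vec 1 was the higher of the CAF-vec samples, the reverse of *Ccl2*, and the groups again did not overlap. Its means were 46.6 ± 15.8 CPM (SD, n = 2) and 134 ± 23.3 CPM (SD, n = 3), a ratio of 2.87, with a log2 difference of 1.54 ± 0.25 (SE). *Ccl5*, which encodes the T cell and monocyte attractant RANTES (ENSMUSG00000035042, minus strand, chr11:83525778-83530518), was at 0 CPM in each CAF-vec sample, against 0.0706, 0.0515 and 0.00033 CPM in CAF-200. At most this is a trace, below the level at which a difference could be tested.

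*Cx3cl1* encodes fractalkine, a membrane-bound chemokine that ADAM10 and ADAM17 release from the cell surface and that binds CX3CR1. It (ENSMUSG00000031778, plus strand, chr8:94772009-94782427) was at 52.3 and 73.3 CPM in CAF-vec and at 94.2, 95.5 and 106 CPM in CAF-200. The CAF-200 samples were close together and all above CAF-vec. The means were 62.8 ± 14.9 CPM (SD, n = 2) and 98.4 ± 6.23 CPM (SD, n = 3), a ratio of 1.57, and the log2 difference of 0.66 ± 0.16 (SE) was smaller than those of *Cxcl14*, *Cxcl1*, *Cxcl5*, *Ccl2* and *Ccl7*. It ran from 0.42 without CAF-vec replicate 1 to 0.90 without CAF-vec replicate 2.

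*Cxcl12* encodes SDF-1, the CXCR4 ligand that holds hematopoietic cells in their niches and that CAFs are known to secrete. It (ENSMUSG00000061353, plus strand, chr6:117168535-117181367) was at 4701 and 6699 CPM in CAF-vec and at 4946, 5269 and 4569 CPM in CAF-200. The CAF-200 samples fell around the lower CAF-vec sample, so the groups overlapped, and CAF-vec 2 stood highest. The means were 5700 ± 1413 CPM (SD, n = 2) and 4928 ± 350 CPM (SD, n = 3), and the log2 difference was -0.19 ± 0.21 (SE). Its sign hung on the CAF-vec sample used, with -0.45 without CAF-vec replicate 1 and 0.0656 without CAF-vec replicate 2. In the mean over all samples *Cxcl12* ranked 9 by CPM among the 12175 tested genes. *Cxcl10*, an interferon-induced ligand of CXCR3 (ENSMUSG00000034855, minus strand, chr5:92346638-92348889), was at 0.0657 and 0.169 CPM in CAF-vec and at 0.00029, 0.102 and 0.151 CPM in CAF-200. Its traces overlapped between the groups, and 133 bases of its exons lie opposite an exon of *Art3*, where the stranded library separates the strands only as far as the counting used strand, which the sources used here do not state.

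**Figure D2:**
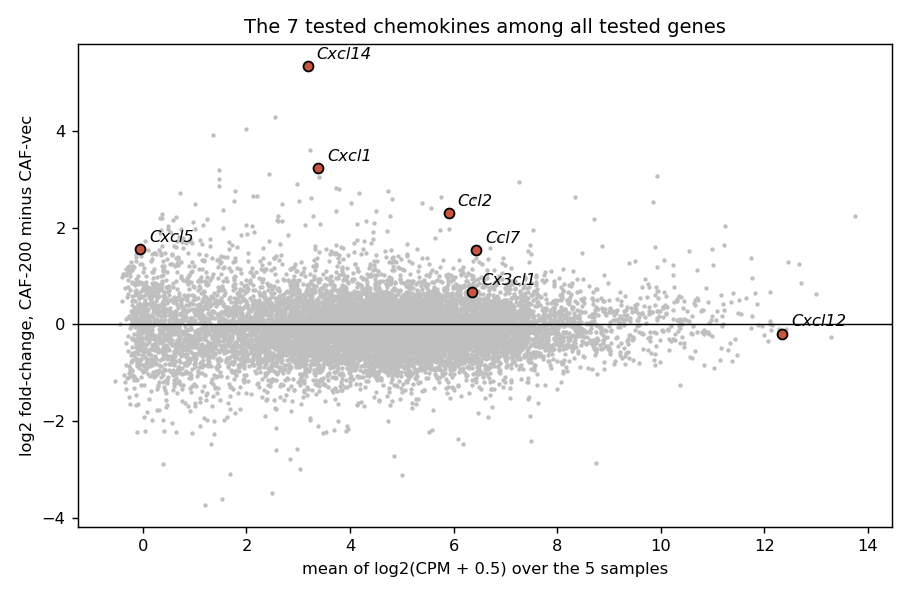
Log2 fold-change (CAF-200 minus CAF-vec) against mean log2(CPM + 0.5) over the 5 samples for the 12175 tested genes (grey points), with the 7 tested chemokines as filled circles. *Cxcl14* is the uppermost point at 5.35, *Cxcl1*, *Ccl2*, *Ccl7* and *Cxcl5* lie between 1.54 and 3.24, and *Cxcl12* lies near 0 at the far right of the level axis.

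Levels of different genes were compared as CPM per kb of annotated exon. In CAF-vec the order was *Cxcl12* (796 ± 197 CPM per kb, SD, n = 2), *Ccl7* (58.2 ± 19.7), *Ccl2* (29.3 ± 14.2), *Cx3cl1* (17.8 ± 4.21), *Cxcl1* (2.33 ± 0.315) and *Cxcl14* (0.263 ± 0.0136), with *Cxcl10*, *Cxcl2*, *Cxcl5* and *Ccl5* below 0.12 CPM per kb in every sample. In that order *Ccl2* and *Cx3cl1* overlapped between samples, as did *Cxcl2*, *Cxcl5* and *Ccl5*. In CAF-200 the order by level was *Cxcl12* (688 ± 48.9 CPM per kb, SD, n = 3), *Ccl7* (167 ± 29.1), *Ccl2* (140 ± 14.6), *Cx3cl1* (27.9 ± 1.76), *Cxcl1* (26.7 ± 5.40), *Cxcl14* (21.7 ± 3.25) and *Cxcl5* (0.632 ± 0.0978). *Cx3cl1*, *Cxcl1* and *Cxcl14*, well separated in CAF-vec, had overlapping neighbours in that order in CAF-200, as did *Ccl7* and *Ccl2*. *Cxcl1* was above *Cx3cl1* in CAF-200 replicates 1 and 2 (28.5 against 26.7 and 31.0 against 27.0 CPM per kb) and below it in replicate 3 (20.6 against 29.9 CPM per kb).

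Summed over 38 chemokine ligand genes of the table, *Cxcl12* held 82.1% and 87.5% of the level per kb in the CAF-vec samples and 60.9%, 62.7% and 63.3% in the CAF-200 samples. In CPM, not divided by exon length, the share was 96.3% and 97.3% in CAF-vec and 91.3%, 91.9% and 91.6% in CAF-200. Exon length was taken over all annotated protein-coding transcripts, not only those expressed, so shares per kb depend on the annotation. The level of *Cxcl12* itself overlapped between the groups, so the groups differed in the sum of the other ligands. That sum was 143 and 134 CPM per kb in CAF-vec and 444, 437 and 370 CPM per kb in CAF-200, or 138 ± 6.75 (SD, n = 2) against 417 ± 41.1 (SD, n = 3). *Ccl2* and *Ccl7* together made up 63.8% and 62.6% of it in CAF-vec and 74.5%, 75.3% and 70.0% in CAF-200. *Cxcl14* made up 0.177% and 0.204% of it in CAF-vec and 4.91%, 4.21% and 6.74% in CAF-200. The ratio of *Ccl7* to *Ccl2* per kb was 3.74 in CAF-vec 1 and 1.12 in CAF-vec 2, and 1.35, 1.15 and 1.08 in CAF-200, so that CAF-vec 1 stood apart from the other 4 samples. These sums contain the listed chemokines and are a description only.

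**Figure D3:**
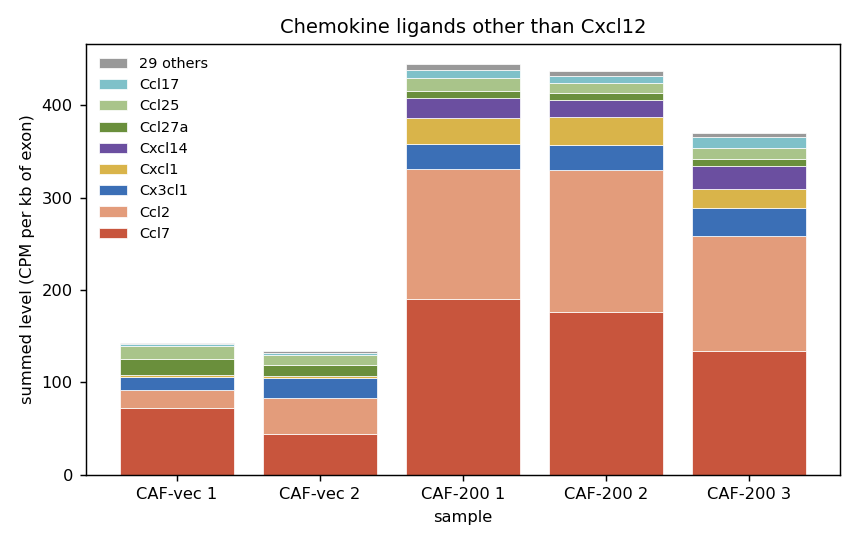
Summed level of the 37 chemokine ligand genes other than *Cxcl12* in each sample, in CPM per kb of exon, stacked by gene. The CAF-vec bars reach 143 and 134 and the CAF-200 bars 370 to 444, with *Ccl7* and *Ccl2* as the largest blocks in each CAF-200 sample.

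Of the 5 listed chemokines with a log2 difference above 1, *Cxcl14* lies on chromosome 13, outside the clusters described here, *Ccl2* and *Ccl7* share a cluster, and *Cxcl1* and *Cxcl5* share another. On chromosome 11, *Ccl7* lies 10.1 kb from *Ccl2* (distances are between the lower coordinates of the genes), and the next genes were *Ccl11* (22.3 kb, 0 CPM in CAF-vec and a mean of 0.0408 CPM in CAF-200), *Ccl12* (66.3 kb, 0 CPM in all samples), *Ccl8* (79.6 kb) and *Ccl1* (141 kb, 0 CPM in all samples). *Ccl8* was the only further gene of this cluster with enough RNA to be tested. On chromosome 5, *Cxcl1* lies 12.6 kb from *Cxcl2* and 132 kb from *Cxcl5*. *Ppbp*, *Pf4*, *Cxcl3* and *Cxcl15* lie between these, 96.7 to 123 kb from *Cxcl1*, and none of them reached 0.5 CPM in 2 samples. *Ppbp*, which encodes the platelet chemokine CXCL7, was the highest of them, at 0 and 0.119 CPM in CAF-vec and 0.630, 0.275 and 0.344 CPM in CAF-200. On chromosome 8, *Ccl17* lies 38.4 kb from *Cx3cl1*, and *Ccl22*, 26.4 kb to the other side, was at most 0.0207 CPM.

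**Figure D4:**
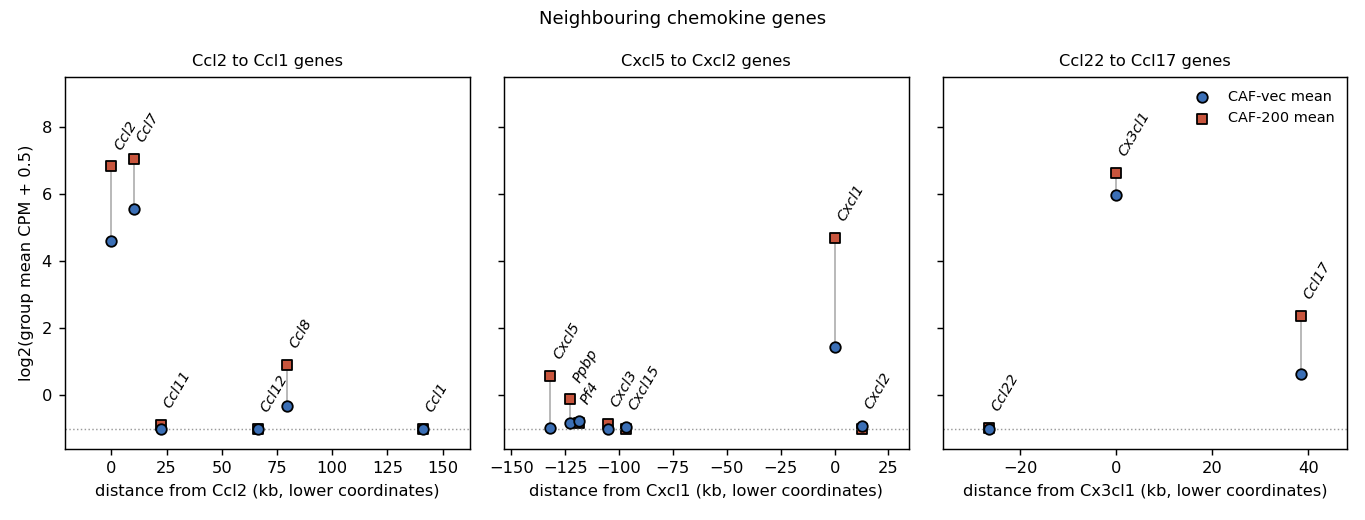
Group means of neighbouring chemokine genes, as log2 of the mean CPM + 0.5, against the distance in kb between the lower coordinate of each gene and that of *Ccl2* (left), *Cxcl1* (middle) and *Cx3cl1* (right). Circles are CAF-vec, squares CAF-200, and the dotted line marks 0 CPM. Most neighbours sit on or near the dotted line in both groups, while *Ccl2*, *Ccl7*, *Ccl8*, *Cxcl5*, *Ppbp*, *Cxcl1*, *Cx3cl1* and *Ccl17* have the square above the circle.

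Of 29 other chemokine ligands, 28 were in the table and 6 were expressed highly enough to be tested. Of these, *Ccl17* and *Ccl8* passed the threshold as higher in CAF-200, but *Ccl8* entered the comparison only through the CAF-200 samples and therefore had to differ. *Ccl17*, which encodes the CCR4 ligand TARC, was at 1.23 and 0.897 CPM in CAF-vec and at 4.28, 3.79 and 5.98 CPM in CAF-200. The groups did not overlap, and the limma log2 fold-change was 1.72 ± 0.22 (SE, adjusted *p* = 0.00566). *Ccl8*, which encodes MCP-2, was at 0.407 and 0.208 CPM in CAF-vec and at 1.46, 1.41 and 1.22 CPM in CAF-200. Its log2 difference, given as a description, was 1.21 ± 0.17 (SE), and it was 0.86 with 1 CPM added, where the threshold was missed, and 1.88 with 0.1 CPM added. *Cxcl16*, the membrane-bound CXCR6 ligand, had a limma log2 fold-change of 1.09 and missed the threshold (adjusted *p* = 0.0120). It was called higher with each sample centred on its median, with no variance trend, and at an adjusted *p* under 0.05. *Ccl25*, known from thymus and gut, was at 17.6 to 21.4 CPM in CAF-vec, against 16.6 to 21.7 CPM in CAF-200, so the groups overlapped. *Ccl27a*, known from skin, was at 26.7 and 17.8 CPM in CAF-vec, against 12.0 to 12.3 CPM in CAF-200 (limma log2 fold-change -0.82, adjusted *p* = 0.0208). Its value is uncertain, since 53.3% of its 50-base stretches also occur in 5 other genes. *Ccl9* differed more between the CAF-vec samples (0.336 and 1.88 CPM) than between the groups, with a log2 fold-change of -0.35 without CAF-vec replicate 1 and 1.16 without CAF-vec replicate 2. Without CAF-vec replicate 2 *Ccl9* was called higher and *Ccl27a* lower (-1.10), and without CAF-vec replicate 1 *Cxcl16* was called higher. The calls of *Ccl17* and *Ccl8* were lost when any CAF-200 sample was left out, and that of *Ccl17* also without the filter on low values. *Lyz2* was higher in CAF-200 alongside the chemokines, whereas *Msln* was lower. The sum of the other leukocyte and macrophage markers was lower too, although its tested genes, *Cd68* and *Csf1r*, each overlapped. The part of these markers in the result was not tested.

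**Figure D5:**
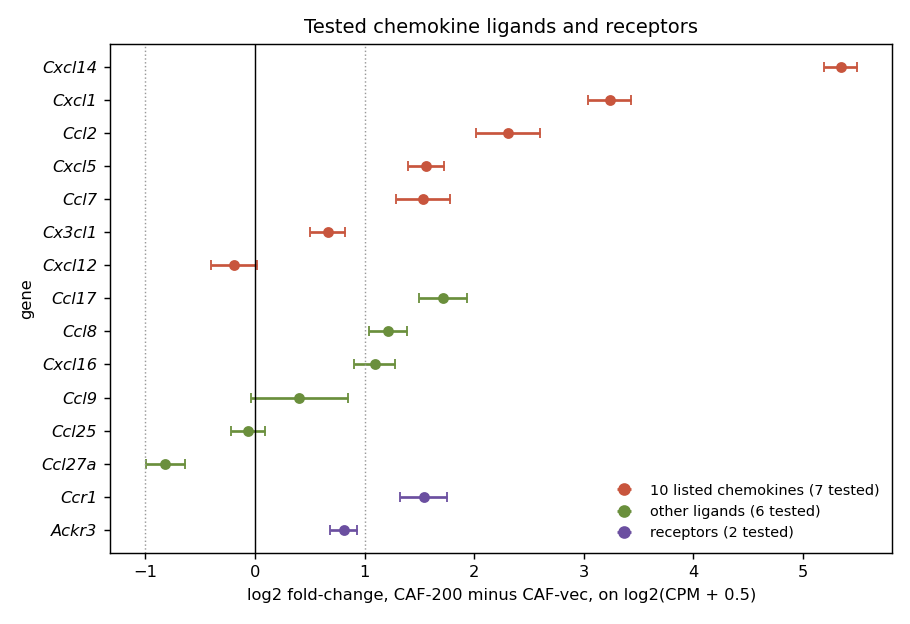
Log2 fold-changes (CAF-200 minus CAF-vec, on log2(CPM + 0.5)) with standard errors as bars for the 7 tested chemokines of the set, the 6 other tested ligands and the 2 tested receptors. Dotted lines mark -1 and 1. *Cxcl14* lies farthest right at 5.35, and *Cxcl12*, *Ccl25* and *Ccl27a* lie left of 0.

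Of 23 chemokine receptors, 2 were expressed highly enough to be tested. *Ccr1*, which binds CCL5 and CCL7 among others, was at 0.0175 and 0.119 CPM in CAF-vec and at 1.00, 0.956 and 1.55 CPM in CAF-200. It too entered the comparison only through the CAF-200 samples and had to differ, so its log2 difference of 1.54 ± 0.22 (SE) is a description. That difference was 1.01 with 1 CPM added and 2.95 with 0.1 CPM added. *Ackr3*, the atypical receptor that takes up CXCL12, was at 5.48 and 6.63 CPM in CAF-vec and at 10.3, 10.8 and 11.8 CPM in CAF-200. All CAF-200 samples were above CAF-vec, and the limma log2 fold-change of 0.81 ± 0.12 (SE, adjusted *p* = 0.00869) was under the fold required. The receptors through which most of the listed chemokines act were scarcely detected. *Cxcr4* was at most 0.159 CPM, *Ccr2* at most 0.00975 CPM and *Cx3cr1* at most 0.0209 CPM, and *Cxcr2* and *Cxcr3* were listed at 0 in all samples.

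Of 15 genes that cut chemokines or transmit the signal of their receptors, 11 were tested and *Gnai1*, an inhibitory G protein subunit, was called higher (0.659 and 0.960 CPM in CAF-vec against 2.76 to 2.80 CPM in CAF-200, limma log2 fold-change 1.34, adjusted *p* = 0.00421). *Gnai2*, the far more abundant relative, was at 566 and 410 CPM in CAF-vec, against 297 to 311 CPM in CAF-200 (limma log2 fold-change -0.66, adjusted *p* = 0.0256). *Adam10* and *Adam17*, which shed CX3CL1, had log2 fold-changes of 0.19 and -0.37, and neither passed the threshold. The protease gene *Dpp4*, whose product removes the amino terminus of several chemokines, was at most 0.212 CPM. Of 12 inducing cytokines and their receptors, 7 were tested. *Il1rap*, the shared subunit of the IL-1 receptor, was called higher, at 9.25 and 9.97 CPM in CAF-vec and 18.8, 21.0 and 19.5 CPM in CAF-200 (limma log2 fold-change 1.00, adjusted *p* = 0.00331), just past the fold required. The calls of *Gnai1* and *Il1rap* were lost when any CAF-200 sample was left out, and that of *Il1rap* also without CAF-vec replicate 1. *Il1r1* was at 11.1 and 13.0 CPM in CAF-vec, against 18.8 to 19.6 CPM in CAF-200, with a limma log2 fold-change of 0.65 (adjusted *p* = 0.00930). The cytokine genes *Il1a*, *Il1b*, *Ifnb1* and *Ifng* were listed at 0 in all samples, and *Tnf* was at most 0.0203 CPM.

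Among 16 transcription factors and mRNA decay factors that act on chemokine genes, all were tested and 0 were called by limma in either direction, while 8 had an unadjusted *p* under 0.05, as did 44.9% of all tested genes. At the adjusted *p* under 0.01 alone, which 10.0% of all tested genes passed, there were 3. *Nfkbia*, the NF-κB inhibitor that NF-κB itself induces, was at 34.6 and 34.8 CPM in CAF-vec and 53.9, 55.5 and 57.0 CPM in CAF-200 (limma log2 fold-change 0.67, adjusted *p* = 0.00494). *Nfkbiz*, a nuclear cofactor of NF-κB, was at 25.7 and 22.1 CPM in CAF-vec, against 40.7 to 43.6 CPM in CAF-200 (limma log2 fold-change 0.80, adjusted *p* = 0.00570). *Stat2*, of the type I interferon response, was at 31.5 and 29.6 CPM in CAF-vec, against 18.5 to 20.3 CPM in CAF-200 (limma log2 fold-change -0.64, adjusted *p* = 0.00765). None of these 3 passed that adjusted *p* when any CAF-200 sample was left out. *Nfkb1* had a limma log2 fold-change of -0.50 (adjusted *p* = 0.0323), and *Rela* overlapped between the groups. Of the decay factors, *Zfp36*, *Zfp36l1* and *Zc3h12a* had log2 fold-changes between -0.36 and 0.27 and none passed the threshold.

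Seed matches were looked for in the longest annotated 3′-UTR of each gene. Of the 12055 tested genes with a 3′-UTR, 15.7% held CAGTATT, matching the seed that miR-200b shares with miR-429, and 20.8% held a match to the seed of miR-200a, as spelled above. None of the 10 chemokines held the former. The miR-200a match occurred in *Cxcl12* (2 matches in 5188 bases), *Cx3cl1* (1 in 1871 bases) and *Cxcl2* (1 in 1494 bases), and these counts were the same with any annotated 3′-UTR. *Cxcl14*, *Cxcl1*, *Cxcl5*, *Cxcl10*, *Ccl2*, *Ccl5* and *Ccl7*, whose 3′-UTRs span 199 to 1149 bases, held neither. The matches are shown in 30-base windows of the plus strand of GRCm38, with the seed match in capitals, so that they can be set beside the miR-200a-3p sequence above.
*Cxcl12*, chr6:117178641-117178670: aggtctgaagtCAGTGTTagggaagggccc
*Cxcl12*, chr6:117181130-117181159: agcgatgggttCAGTGTTgtgtgtggtgaa
*Cx3cl1*, chr8:94781774-94781803: gtctctgagagCAGTGTTcacgccaaggac
*Cxcl2*, chr5:90905724-90905753: tatttaggtttCAGTGTTtgtaaactgtat
Of the tested genes among these, *Cxcl12* had a log2 difference of -0.19 and *Cx3cl1* of 0.66. A match of letters is a description of the sequence and does not show that a microRNA acts there.

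AU-rich stretches in 3′-UTRs are known to bind decay factors such as ZFP36. The heptamer TATTTAT occurred in 30.3% of the longest 3′-UTRs of tested genes. Overlapping matches counted, there were 6 in *Cxcl1*, 7 in *Cxcl2* and 1 each in *Cxcl5*, *Cxcl12* and *Cx3cl1*, whereas *Cxcl14*, *Cxcl10*, *Ccl2*, *Ccl5* and *Ccl7* held none. The neighbouring genes *Cxcl1* and *Cxcl2* are shown because they carried the most matches, the former at 19.7 to 29.5 CPM in CAF-200 and the latter at 0, with 1 heptamer in capitals in each window of the plus strand of GRCm38.
*Cxcl1*, chr5:90892603-90892632: agggtcctattTATTTATgtatttatttat
*Cxcl2*, chr5:90905336-90905365: atctatgtattTATTTATttattaattcca

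Promoters, from 250 bases before to 50 bases after the gene start, were given by RefSeq (GRCm38.p6) for *Cxcl1*, *Cxcl2*, *Cxcl10*, *Cxcl12*, *Cxcl14* and *Cx3cl1*. The κB consensus, the motif that NF-κB binds, was searched on both strands and occurred in 8.5% of 32851 promoters. It occurred in *Cxcl1*, *Cxcl2* and *Cxcl10* and not in the *Cxcl12*, *Cxcl14* and *Cx3cl1* windows. In each of these first 3 genes a match overlapped another that starts 1 base further on. The motif is shown in capitals on the strand of the gene, because *Cxcl1* and *Cxcl2* carried the same 10 letters, with its first base 71 bases before the start of *Cxcl1*, 97 before that of *Cxcl2*, and 159 and 104 before that of *Cxcl10*.
*Cxcl1*, chr5:90891164-90891193: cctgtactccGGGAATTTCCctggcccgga
*Cxcl2*, chr5:90903792-90903821: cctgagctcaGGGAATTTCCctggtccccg
*Cxcl10*, chr5:92349029-92349058: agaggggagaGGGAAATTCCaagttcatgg
*Cxcl10*, chr5:92348974-92349003: tcggtttacaGGGGACTTCCctcgggttgc
Of these 3 genes only *Cxcl1* was expressed highly enough to be tested, and *Cxcl14*, with the largest difference, held no match in its window.

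The 5 tested genes whose profile over the 5 samples was most like that of *Cxcl14* were *Rgs16*, *Gpx3*, *Serpinb2*, *Tmem176a* and *Lgr6*. Likeness was the root mean square difference between log2(CPM + 0.5) profiles centred on their means, and it was 0.55 for *Rgs16*, 0.67 for *Gpx3*, 0.77 for *Serpinb2*, 0.90 for *Tmem176a* and 1.07 for *Lgr6*, in log2 units. *Rgs16*, a regulator of G protein signaling, was at 0.330 and 0.670 CPM in CAF-vec and at 17.2, 15.6 and 24.3 CPM in CAF-200. As for *Cxcl14*, replicate 3 was the highest and replicate 2 the lowest of the CAF-200 samples. *Gpx3*, a secreted glutathione peroxidase, was at 0.326 and 0.168 CPM in CAF-vec, against 11.3 to 12.2 CPM in CAF-200. *Serpinb2*, which encodes the plasminogen activator inhibitor PAI-2, was at 0 CPM in each CAF-vec sample, against 4.93 to 12.6 CPM in CAF-200. *Gpx3*, *Serpinb2* and *Lgr6* were under 0.5 CPM in both CAF-vec samples. Like *Cxcl14*, they entered the comparison only through the CAF-200 samples and therefore had to differ. The likeness is over 5 samples in 2 groups, so that it mostly ranks genes by a large difference between the groups.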

How the data were processed

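Bulk mRNA of 2 CAF-vec and 3 CAF-200 samples was sequenced as stranded paired-end libraries. The submitters' processing notes name FastQC, cutadapt, Trimmomatic, STAR, RSEM, edgeR and GRCm38/mm10, without versions. The authors deposited 1 table of normalized CPM values, named for TMM. All 5 sample columns were used and 0 were left out. Low values do not come in equal steps, so whole reads could not be recovered, no count test was run and depth, and with it counting error, is unknown.

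Values were compared as log2(CPM + 0.5) with limma 3.58.1 (variance trend, R 4.3.3) in the 12175 genes that reached 0.5 CPM in 2 or more samples, and *p* values were adjusted by Benjamini-Hochberg. Calls required a log2 fold-change beyond 1 together with an adjusted *p* under 0.01. The fit was also run on simulated data in which all genes and both groups had the same spread. In the real data the CAF-vec pair differed more than the CAF-200 pairs, so that run does not test the fit under these conditions. The 10 chemokines and all gene lists were chosen with earlier results of these data known. Named genes are the 10 chemokines, called genes of the other lists, ligands and receptors with a mean of at least 10 CPM, the 5 profiles most like *Cxcl14*, *Zeb1* and *Zeb2*. Further genes of the lists and markers were named after their values were seen. Names, positions and exon lengths were from GENCODE M21 (GRCm38), and microRNAs and promoters from RefSeq (GRCm38.p6). Alternatives were other pseudocounts, filters, scalings, thresholds and variance models, a replicate block, and each sample left out. Python 3.11.15, pandas 2.3.3, numpy 2.4.6 and matplotlib 3.10.9 were used.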

Additional observations from a re-analysis of the deposited data

How the results depend on the processing

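The direction of *Cxcl14*, *Cxcl1*, *Cxcl5*, *Ccl2*, *Ccl7* and *Cx3cl1* held under every alternative that could be fitted, and *Cxcl12* changed sign only without CAF-vec replicate 2. Depth is unknown, so no limit of detection can be given for *Cxcl2*, *Cxcl10* and *Ccl5*. A fit with 1 CAF-vec sample assumes that it varies like the CAF-200 samples. The edgeR test on recovered reads was not run, because whole reads could not be recovered.

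With 1 CPM added, *Cxcl5* was no longer called, and 1 other ligand (*Ccl17*, not *Ccl8*) and 0 inducer genes were. Without a filter, 3 listed chemokines (not *Ccl2* or *Ccl7*) and 1 other ligand (not *Ccl17*) were called. With no variance trend *Ccl7* was not called and *Cxcl16* was. With a mean of at least 5 CPM, 174 genes were higher, 3 listed chemokines (*Ccl7* was lost, and *Cxcl5* fell under the filter) were called, and 0 other ligands, 0 receptors and 0 processing and signalling genes were. At an adjusted *p* under 0.05, 436 genes were lower. With no fold-change threshold, 542 genes were higher and 678 lower, with 2 receptors, 2 inducer genes and 3 regulators. Centring each sample on its median gave 365 genes higher and 228 lower, against 289 and 286 as deposited.

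Deviations of same-numbered samples from their group means had correlations over genes of 0.249 and 0.134 for numbers 1 and 2. With 2 CAF-vec samples, their deviations mirror each other, so these are not 2 separate observations. They do not show that the samples are paired, since only the number links them. CAF-200 replicate 3 has no same-numbered CAF-vec sample, so a replicate block gave it no weight in the group difference. The log2 differences with the block therefore equalled those without that replicate (*Cxcl14* 5.24 in both). In the fit with a replicate block, 101 genes were higher and 70 lower, and 4 listed chemokines were called (*Cxcl5* was lost). Of other ligands, receptors, processing and signalling genes and inducer genes, 0 each were called by limma. There 4, 2, 3 and 2 had an unadjusted *p* under 0.05, as did 1574 genes higher and 2480 lower of all tested.

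Leaving out each sample gave 0 to 624 genes higher, 0 to 906 lower, 0 to 5 listed chemokines, 0 to 4 other ligands, 0 to 1 receptors, 0 to 1 processing and signalling genes and 0 to 1 inducer genes. All values of 0 or 1 for the genes higher and the listed chemokines came from leaving out a CAF-200 sample, where limma still had 1500 to 1554 genes higher and 2316 to 2549 lower at an unadjusted *p* under 0.05, with 4 other ligands, 2 receptors, 4 processing and signalling genes and 2 inducer genes each time. The highest counts of genes came without CAF-vec replicate 2. The cause was not tested.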
